A study of Mus musculus with 2 samples.

Results

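The receptors described here are those encoded by Klrd1, Klrc1, Klrc2, Klrc3, Klrk1, Klre1, Klri1 and Klri2, the CD94, NKG2, KLRE and KLRI genes of the mouse natural killer gene complex. The 8 genes were chosen by their symbols among the 27998 genes listed in the files, and all 8 were found. CD94, the product of Klrd1, reaches the cell surface with an NKG2 chain: with NKG2A, encoded by Klrc1, it forms an inhibitory receptor, and with NKG2C (Klrc2) or NKG2E (Klrc3) an activating one that signals through the adaptor DAP12, encoded by Tyrobp. These receptors recognize the nonclassical class I molecule Qa-1 (H2-T23). NKG2D, encoded by Klrk1, forms a homodimer without CD94, signals through DAP10 (Hcst) and, in the mouse, DAP12, and recognizes stress-induced ligands. KLRE1 pairs with KLRI1 into an inhibitory receptor or with KLRI2 into an activating one.

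Single-cell RNA was measured in γδ T cells of untreated, wild type C57BL/6J mice aged 8 weeks, in 1 library from the liver and 1 library from the thymus. The cells had been sorted as CD3e+ and γδ TCR+, the thymic cells after magnetic depletion of CD4+ and CD8+ cells. The mice behind each library were pooled, so neither library has a replicate: no test between tissues or classes is possible, and every interval below is a 95% interval that covers counting error only. The study asked how γδ T cells of the liver relate to those of the thymus.

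Cells with 800 to 4000 detected genes and at most 6% mitochondrial UMIs were kept, 8075 of 8658 hepatic and 4351 of 4541 thymic barcodes, with a median of 2741 and 3271 UMIs (counted molecules). The libraries held 60 barcodes in common; without those barcodes, the 44 levels of at least 10 CPM that were recomputed for the main classes changed by between -6.01% and 1.43%. Cells were clustered with the 8 receptor genes and their signalling genes left out, and clusters were named from markers of the classes that the study describes. C1-like cells (Sox13, Ccr9; 2429 thymic cells) and C2-like cells (Cd200, S1pr1; 1027 thymic and 46 hepatic) were mainly thymic. C3-like cells (Ly6c2, Dapl1) were present in both libraries (1103 hepatic, 177 thymic), as were the interleukin-17 type C6-like cells (Il17a, Il17f; 792 hepatic, 165 thymic). C4-like cells (Socs2, Cd40lg; 2672 cells), cytotoxic C5-like cells (Ccl4, Gzmb, Ncr1; 2957) and C7-like cells (Klra6, Klra7, Klrg1; 269) were hepatic. C8-like cells (105 hepatic) carried myeloid transcripts such as Lyz2 and C1qb. Only 45.7% of them had a Cd3d, Cd3e or Cd3g UMI, against 97.4% to 99.9% of hepatic C3-like to C7-like cells. The values of C8-like cells are given below for comparison. Whether their Cd3 UMIs came from T cells, doublets or free RNA was not tested. Smaller clusters were led by cell cycle genes (56 hepatic, 538 thymic) and by interferon-induced genes (70 hepatic). Of the hepatic cell-cycle-led cells, 85.7% had a Cd3d, Cd3e or Cd3g UMI. The B cell markers and the C8 markers listed summed to 649 and 2573 CPM there, against 16.1 and 65.1 CPM in hepatic C3-like cells. The 6 natural killer cell markers listed were Eomes, Ncr1, Klrb1c, Gzma, Prf1 and Fcer1g, of which Ncr1 also served to name C5-like cells. They summed to 1509 CPM in C4-like, 8210 CPM in C5-like, 11252 CPM in C7-like and 4297 CPM in C8-like hepatic cells. In the thymus they summed to 4381 CPM in C1-like cells and 2870 CPM over all cells, so the sum alone does not mark natural killer character. The part of these markers in the results was not tested.

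The 8 genes lie side by side on chromosome 6 (GRCm38, GENCODE M21), from the start of Klre1 at 129577905 to the end of Klri2 at 129740484. Klre1 and Klrd1 are on the plus strand and Klrk1, Klrc3, Klrc2, Klrc1, Klri1 and Klri2, in this order, on the minus strand. The Klrc genes are close copies, which bears on how their molecules can be told apart. Of the distinct 50-base windows in the last 500 bases of the annotated coding transcripts, 43.5% of those of Klrc1, 20.5% of those of Klrc2 and 23.3% of those of Klrc3 also occurred in another Klrc gene. The corresponding share was 10.2% for Klri1 and 2.66% for Klri2, and 0% for Klrd1, Klrk1 and Klre1. How reads from such windows were counted is not given in the sources used here, so the division of UMIs among the Klrc genes is uncertain to that extent.

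The promoters of the activating chains Klrc2 and Klrc3 are shown because these genes share their start region almost base for base and yet differed widely in level. The RefSeq table (GRCm38.p6) held a promoter, 250 bases before to 50 bases after a start, for 6 of the 8 genes; Klrd1 and Klri2 had no entry. In the alignment of Klrc2 (chr6:129660507-129660806, minus strand) with Klrc3 (chr6:129643239-129643538, minus strand), 296 of 299 aligned bases were the same, an identity of 99.0%. Capitals mark the bases that differ, including 1 base of Klrc3 with no partner in Klrc2; the first base of Klrc2 lies outside the alignment and is not marked.
Klrc2: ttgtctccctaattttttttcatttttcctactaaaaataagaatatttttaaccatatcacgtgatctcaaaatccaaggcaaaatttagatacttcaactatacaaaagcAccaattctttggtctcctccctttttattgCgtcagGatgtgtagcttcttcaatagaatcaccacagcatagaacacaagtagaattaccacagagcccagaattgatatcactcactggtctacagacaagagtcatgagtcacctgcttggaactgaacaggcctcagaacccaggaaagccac
Klrc3: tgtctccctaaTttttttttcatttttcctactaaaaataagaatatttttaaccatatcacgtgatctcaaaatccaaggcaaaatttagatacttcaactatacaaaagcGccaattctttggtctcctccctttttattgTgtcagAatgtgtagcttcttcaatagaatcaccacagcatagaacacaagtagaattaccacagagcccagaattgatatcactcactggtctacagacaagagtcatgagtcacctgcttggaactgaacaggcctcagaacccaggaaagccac
In the liver library Klrc2 had 6897 UMIs and Klrc3 had 28, a ratio of 246 (170 to 371). The letters TGTGGT, the core of RUNX factor motifs, occurred on either strand in at least 1 promoter of 5 of the 6 genes (Klrc1, Klrc2, Klrc3, Klre1 and Klrk1). They occurred in 16.8% of all 32851 promoters of the table. The first count is per gene, and Klre1 and Klrc2 had more than 1 promoter, whereas the second is per promoter. Klrc2 and Klrc3 are near copies here and are not separate finds. The letters GGTGTGA (T-box factors) and TTCNNNGAA (STAT factors) occurred in none of the 6 and in 3.98% and 8.30% of all promoters.

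The receptors were found mainly in the hepatic library. A level in CPM is a gene's UMI sum over a group of cells, divided by all UMIs of the same cells and scaled to 1000000; the 3′ chemistry gives a molecule the same weight whatever the length of its transcript. Over all kept hepatic cells the level was 1129 CPM for Klrd1, 649 for Klrk1, 625 for Klre1, 582 for Klrc1, 285 for Klrc2, 18.7 for Klri2, 7.41 for Klri1 and 1.16 for Klrc3. Over all kept thymic cells it was 27.1 CPM for Klrd1, 22.5 for Klrk1, 11.4 for Klrc1, 4.86 for Klrc2, 4.75 for Klre1, 0.879 for Klri2, 0.176 for Klri1 and 0.0586 for Klrc3, the last from a single UMI. Each hepatic level exceeded the thymic one, by the largest factor for Klre1, 132-fold (106 to 166), and by the smallest among the genes above 50 CPM for Klrk1, 28.8-fold (26.1 to 32.0). The ratio was 41.7 (38.03 to 45.8) for Klrd1, 51.2 (44.4 to 59.3) for Klrc1 and 58.7 (47.3 to 73.8) for Klrc2. All 7 members with at least 50 UMIs over both libraries were at least 2-fold higher in the liver, where 12.1% of the 10869 genes tested so were higher and 16.9% at least 2-fold lower. In bulk terms, more cells of a receptor-bearing class and more RNA per cell cannot be told apart in these ratios, and the classes below separate them in part. Only the thymic cells were depleted of CD4+ and CD8+ cells, and Cd8a was among the 10 leading genes of C5-like cells. The part of this depletion in the ratios was not tested.

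**Figure D1:**
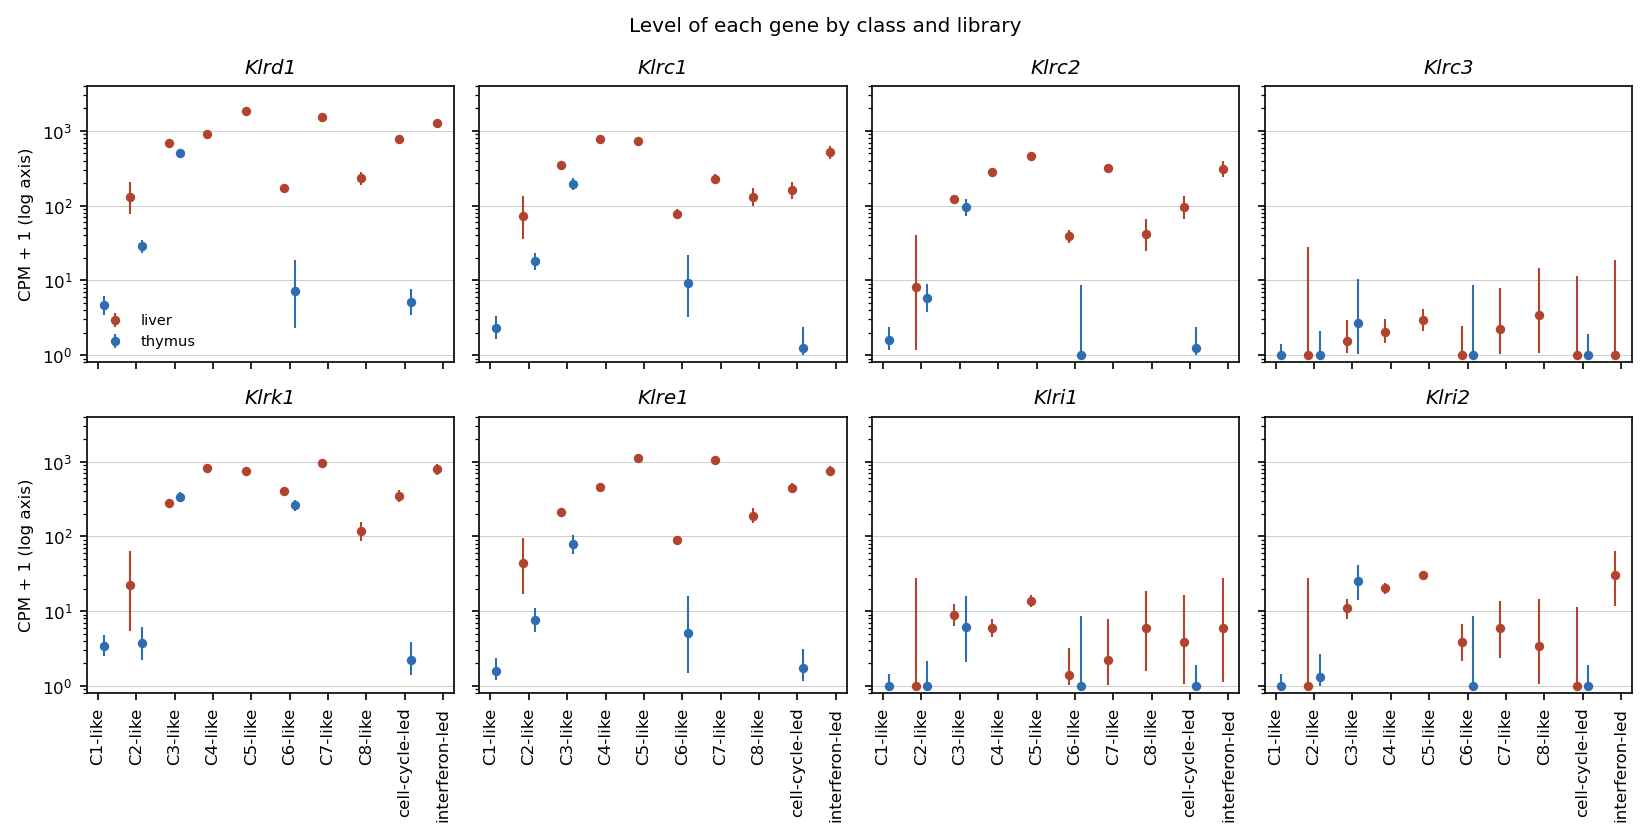
Level of each of the 8 genes (CPM + 1, log axis) in every class with at least 20 cells in a library, hepatic in red and thymic in blue, with exact 95% Poisson intervals that cover counting error only. Klrd1 reached 1847 CPM in hepatic C5-like cells and 509 CPM in thymic C3-like cells, whereas C1-like thymic cells had 3.62 CPM.

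Klrd1, the CD94 chain that the NKG2A, C and E receptors require, was highest in the cytotoxic classes. Its level was 1847 CPM (1818 to 1876) in C5-like cells, 1525 (1441 to 1613) in the C7-like class, 1290 (1139 to 1455) in interferon-led cells, 914 (893 to 936) in C4-like cells, 784 (694 to 881) in cell-cycle-led cells and 681 (654 to 708) in C3-like hepatic cells. C5-like cells stood above all others. The intervals of C7-like and interferon-led cells overlapped, as did those of cell-cycle-led and hepatic C3-like cells, and C4-like cells lay between the pairs. After each cell was thinned to 1500 UMIs, a Klrd1 UMI was found in 91.0% of C5-like cells, 83.6% of C7-like, 61.0% of C4-like and 52.0% of hepatic C3-like cells, against 18.1% of C8-like cells. Without thinning the shares were 97.6%, 94.8%, 74.9% and 69.8%, against 33.3%.

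In the thymus, among classes of at least 20 cells, Klrd1 was highest in C3-like cells. These 177 cells had 509 CPM (452 to 570) and 48.0% of them a Klrd1 UMI, and they held 295 of the 462 thymic Klrd1 UMIs. C2-like cells held 91, and thymic cells of the classes under 20 cells, which were left out, also held some. C2-like thymic cells had 27.5 CPM, C6-like 6.17, cell-cycle-led 4.18 and C1-like 3.62, and 99.1% of thinned C1-like cells had no UMI of any of the 8 genes. In the C3-like class, which both libraries held, Klrd1 was 1.34-fold (1.19 to 1.52) higher in the liver.

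Klrc1, the inhibitory NKG2A chain, followed another order among the hepatic classes. C4-like cells had 792 CPM (772 to 812) and C5-like cells 725 (707 to 743), whereas it was at 516 (422 to 624) in interferon-led, 353 (334 to 372) in C3-like, 228 (196 to 264) in C7-like cells, 160 (121 to 207) in cell-cycle-led cells, and at 131 (98.4 to 171) in C8-like cells. C7-like cells thus lay below C3-like, C4-like and C5-like cells for Klrc1, but above C3-like and C4-like cells for Klrd1. Hepatic C6-like cells were lower still for Klrc1, at 76.8 CPM (66.4 to 88.5). Hepatic C2-like cells had 72.1 CPM (34.6 to 133) from 10 UMIs, an interval that overlapped those of C8-like and cell-cycle-led cells. A Klrc1 UMI was found in 55.0% of C4-like, 52.9% of C5-like, 29.97% of hepatic C3-like and 18.7% of C7-like cells, against 12.4% of C8-like cells. Poisson counts of the same mean would have reached 70.1% of C4-like, 66.9% of C5-like and 30.9% of C7-like cells. For Klrd1 they would have reached 75.5%, 94.1% and 89.2%, so that both genes were less evenly spread than Poisson counts. The variance was 1.79 times the mean for Klrc1 and 1.90 times for Klrd1 in C4-like cells, and 2.38 and 1.62 times in C7-like cells.

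Klrc2, the activating NKG2C chain, was highest in C5-like cells. C5-like cells had 457 CPM (443 to 472) and C7-like cells 316 (279 to 358), and the level was 312 (240 to 398) in interferon-led, 281 (269 to 293) in C4-like and 122 (111 to 134) in hepatic C3-like cells. C7-like, interferon-led and C4-like cells did not differ beyond their intervals. A Klrc2 UMI was found in 47.1% of C5-like, 34.3% of C7-like, 31.0% of C4-like and 13.9% of hepatic C3-like cells, and in 2.86% of C8-like cells. Klrc3, the NKG2E chain, was close to absent from these libraries: 28 UMIs among the hepatic cells, 16 of them in C5-like and 8 in C4-like cells, and 1 UMI among the thymic cells.

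The balance of inhibitory to activating chains differed between classes. Klrc1 made up 73.7% (72.8 to 74.7) of the 8298 Klrc1, Klrc2 and Klrc3 UMIs of C4-like cells and 74.2% (72.1 to 76.2) of the 1739 of hepatic C3-like cells. The share was 61.2% (60.3 to 62.2) of 9879 UMIs in C5-like cells and 41.8% (37.1 to 46.6) of 438 UMIs in C7-like cells. C7-like cells were therefore the class in which UMIs of activating chains outnumbered those of the inhibitory chain. Their interval lay below those of C3-like, C4-like and C5-like cells. Of the end windows described above, 43.5% for Klrc1 but 20.5% for Klrc2 also occurred in another Klrc gene. Whether activating molecules outnumbered inhibitory ones is therefore not settled by these counts. Thymic C3-like cells, with 67.1% (59.4 to 74.1) of 170 UMIs, met the interval of their hepatic counterparts.

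**Figure D2:**
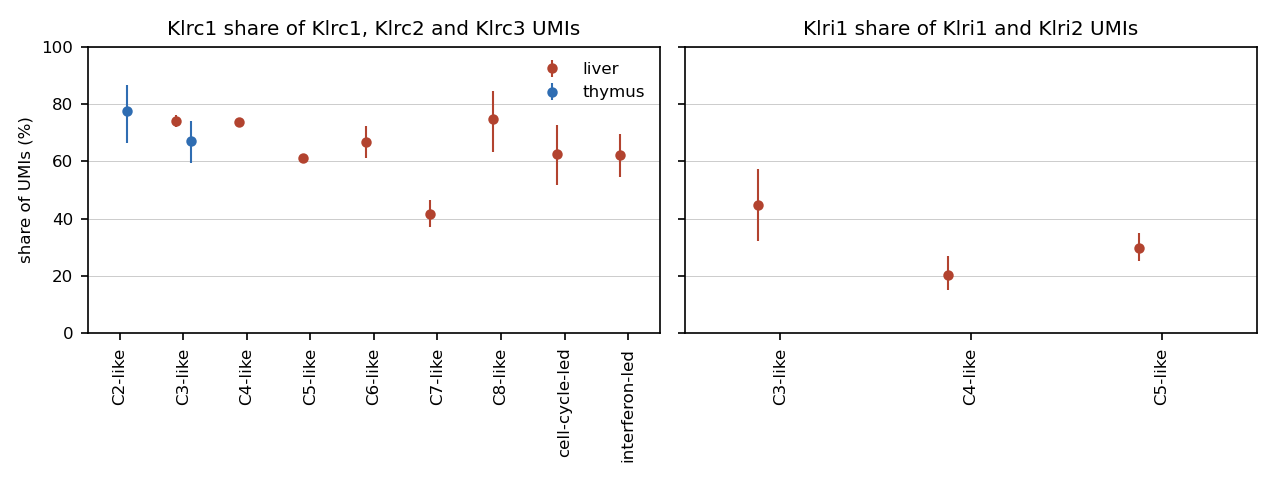
Share of UMIs (%) from the inhibitory chain, Klrc1 among Klrc1, Klrc2 and Klrc3 on the left and Klri1 among Klri1 and Klri2 on the right, in classes with at least 20 such UMIs, with exact 95% binomial intervals. The Klrc1 share falls from 73.7% in C4-like to 41.8% in C7-like hepatic cells, and the Klri1 share is 20.4% for C4-like, 29.9% for C5-like and 44.6% for C3-like cells.

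The combinations of chains within single cells also differed between classes. Of the C5-like cells thinned to 1500 UMIs, 29.6% had Klrc1 UMIs without an activating Klrc chain, 23.8% had Klrc2 or Klrc3 UMIs without Klrc1, 23.3% had both kinds and 23.3% had neither. In C4-like cells the corresponding shares were 33.6%, 9.54%, 21.4% and 35.5%, so that activating chains were mostly found where the inhibitory chain was. In C7-like cells they were 13.1%, 28.7%, 5.597% and 52.6%: the activating chain alone was the more frequent pattern there, and the most frequent was no chain at all. In hepatic C3-like cells they were 21.7%, 5.72%, 8.27% and 64.3%, and in thymic C3-like cells 13.6%, 11.3%, 4.52% and 70.6%. These shares depend on depth, since a chain can be present without a UMI. Without thinning, Klrc1 was found in 65.0% and Klrc2 in 65.0% of C5-like cells. Over the reported value and 7 alternatives, 23.6% to 33.2% of C5-like cells had Klrc1 without an activating chain. The share with an activating chain without Klrc1 was 19.7% to 23.9%.

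How often an NKG2 chain was seen without its partner depended on the denominator. Klrc1, Klrc2 or Klrc3 UMIs without a Klrd1 UMI were found in 6.87% (5.98 to 7.84) of C5-like and 8.21% (5.22 to 12.2) of C7-like cells, but in 18.5% (17.1 to 20.1) of C4-like and 13.4% (11.4 to 15.5) of hepatic C3-like cells. As a share of the cells with a chain, computed after the data were seen, this was 8.95% (7.81 to 10.2) for C5-like, 17.3% (11.2 to 25.04) for C7-like, 28.7% (26.6 to 30.9) in C4-like and 37.4% (32.6 to 42.4) in hepatic C3-like cells. The order of C4-like and C3-like cells was thus the opposite of that over all cells. A Klrd1 UMI was found in 91.0% of all C5-like, 83.6% of C7-like, 61.0% of C4-like and 52.0% of hepatic C3-like cells. In C5-like and C7-like cells, those with a chain thus lacked a Klrd1 UMI about as often as all cells of the class. The reverse, Klrd1 without any of the 3 chains, was found in 44.4% (38.4 to 50.6) of C7-like cells, 29.6% of hepatic C3-like, 21.2% of C5-like and 15.04% of C4-like cells. Without thinning, a chain without Klrd1 remained in 11.8% of C4-like and 1.86% of C5-like cells.

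**Figure D3:**
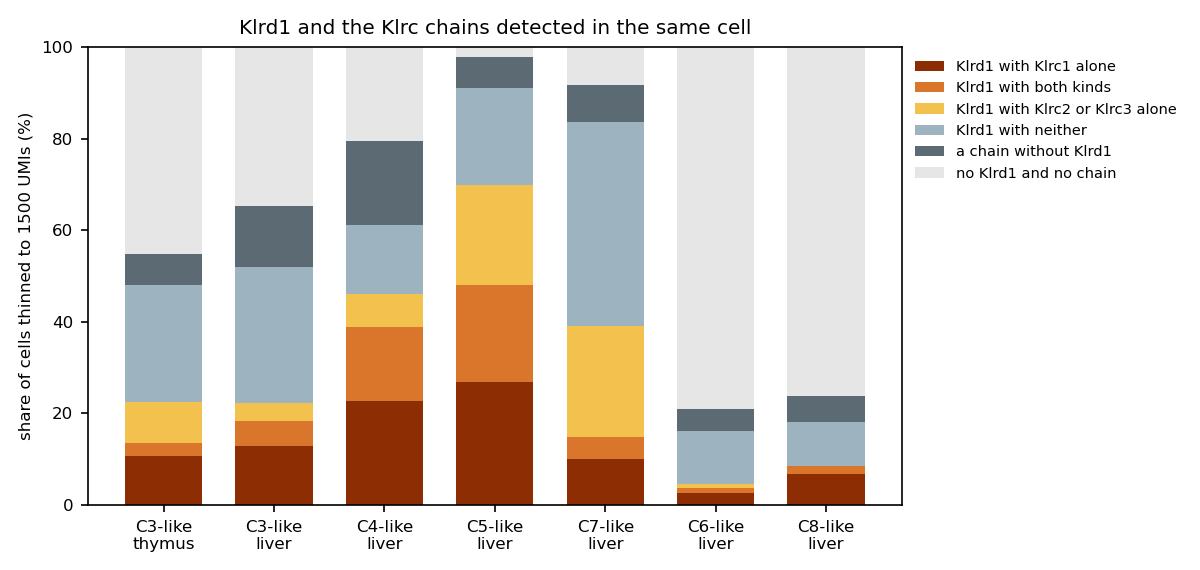
Share of cells (%) by the combination of Klrd1 and Klrc chains detected, in cells thinned to 1500 UMIs; each bar is a class in a library and adds up to 100%. Both kinds of chain with Klrd1 reach 21.2% in C5-like and 16.0% in C4-like cells, and Klrd1 with neither kind reaches 44.4% in C7-like cells.

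The chains were detected together to different degrees in C4-like and C5-like cells. In C4-like cells, Klrc2 UMIs were found in 38.9% (36.4 to 41.5) of the cells with Klrc1 and in 21.2% (18.9 to 23.6) of those without. Klrd1 was found there in 70.5% of the cells with Klrc1 and 49.5% of those without, and in 77.0% of the cells with Klre1 and 51.0% of those without. Hepatic C3-like cells showed the same direction, with Klrc2 in 27.6% and 8.04% of the cells with and without Klrc1. In C5-like cells Klrc2 was found in 44.1% (41.6 to 46.6) of the cells with Klrc1 and in 50.4% (47.8 to 53.1) of those without, the opposite direction with intervals that did not meet. Klrd1 was found in 90.9% and 91.1% of C5-like cells with and without Klrc1. With the cells of highest doublet scores removed, an alternative chosen after the data were seen, the C4-like shares of Klrc2 were 39.1% and 21.0%, and the C5-like shares 44.5% and 48.4%, and the intervals of the C5-like shares, 41.9 to 47.2 and 45.6 to 51.1, then overlapped.

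**Figure D4:**
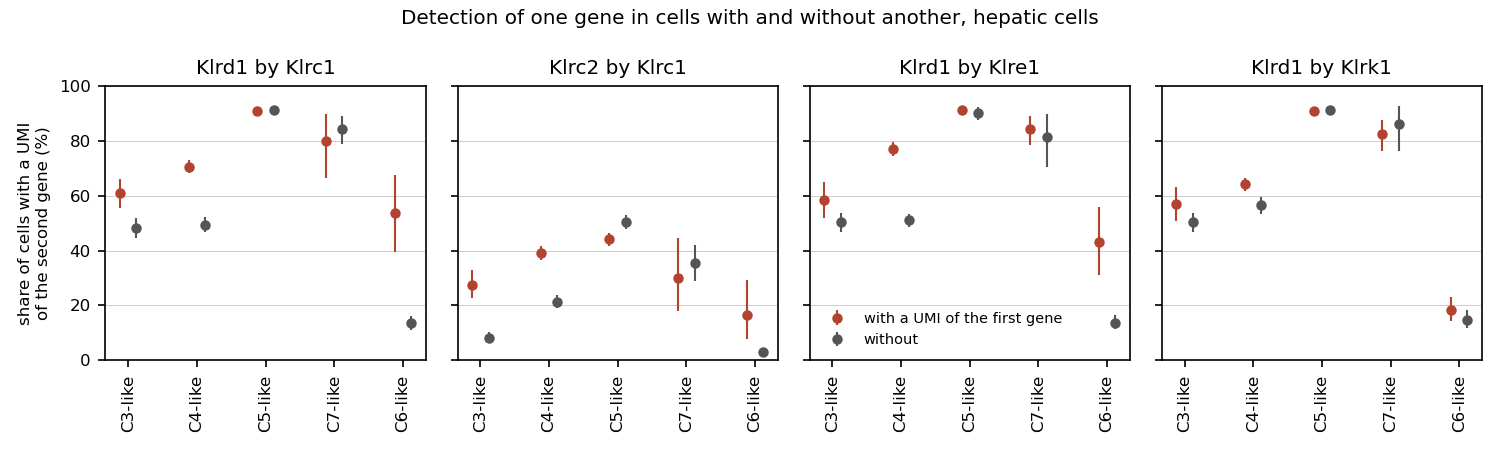
Share of hepatic cells (%) with a UMI of the second gene, in cells with (red) and without (grey) a UMI of the first gene, in cells thinned to 1500 UMIs, with exact 95% binomial intervals. In C4-like cells Klrc2 is found in 38.9% with and 21.2% without Klrc1, and in C5-like cells in 44.1% and 50.4%.

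Cells with many Klrc molecules showed how the chains were divided within a cell. Among C5-like cells with at least 4 Klrc1 and Klrc2 UMIs (1206 cells, all UMIs), 20.3% held Klrc1 UMIs alone, 7.88% Klrc2 UMIs alone and 71.8% (69.2 to 74.3) both. Had every cell drawn its UMIs at the mean share of these cells, 11.6%, 0.526% and 87.9% would be found. In C7-like cells only 41.9% (27.0 to 57.9) of 43 cells held both, where the same calculation gives 91.6%, and 32.6% held Klrc2 alone, where it gives 3.04%. In C4-like cells the observed share with both was 70.2% (67.3 to 72.97) against 78.2%, and in hepatic C3-like cells 70.6% (63.5 to 77.0) against 75.5%, which lies within the interval. With the highest doublet scores removed, the share with both was 68.7% against 68.1% in hepatic C3-like cells, 69.3% against 77.8% in C4-like cells, 71.9% against 88.1% in C5-like and 34.2% against 92.1% in C7-like cells. With at least 6 UMIs, also chosen after the data were seen, it was 79.3% against 92.1% in C5-like cells, and 5 of only 10 C7-like cells held both against 81.1%, where the interval of 18.7% to 81.3% includes the calculated value.

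**Figure D5:**
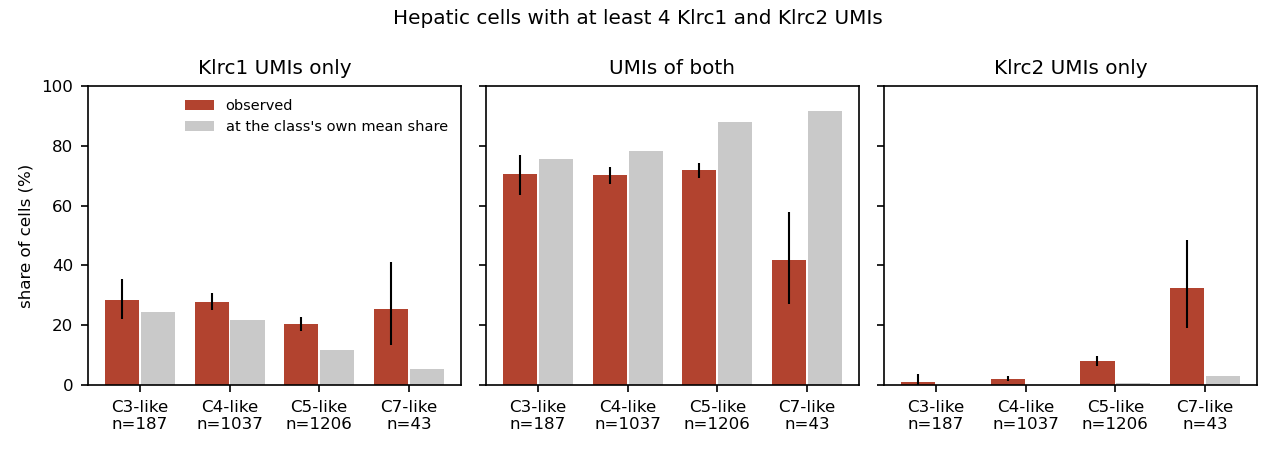
Share of hepatic cells (%) with Klrc1 UMIs only, UMIs of both genes or Klrc2 UMIs only, among cells with at least 4 Klrc1 and Klrc2 UMIs; red bars are observed shares with exact 95% binomial intervals, grey bars the shares if all cells drew at the mean share of the cells shown for their class. Both genes are found together in 71.8% of C5-like cells against 87.9% calculated, and in 41.9% of 43 C7-like cells against 91.6%.

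Klrk1, which encodes NKG2D, was highest in C7-like cells. It was at 962 CPM (895 to 1032) in C7-like, 827 (806 to 847) in C4-like, 789 (672 to 920) in interferon-led and 739 (721 to 758) in C5-like cells, and its UMIs were found in 70.5% of C7-like, 59.8% of C4-like and 56.4% of C5-like cells. Interferon-led cells did not differ from C4-like or C5-like cells beyond their interval. Hepatic C3-like cells had 275 CPM (258 to 292) and thymic C3-like cells 336 (291 to 387), the only member above 50 CPM with the higher value on the thymic side, at a hepatic to thymic ratio of 0.817 (0.700 to 0.958).

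Klrk1 was the member with the highest level in the interleukin-17 type cells, although in the liver it was lower there than in C4-like, C5-like and C7-like cells, and in the thymus lower than in C3-like cells. In hepatic C6-like cells it was at 407 CPM (382 to 432) and found in 40.8% of cells, against 116 CPM and 6.67% in C8-like cells. In thymic C6-like cells it was at 259 CPM (216 to 309) and found in 28.5% of cells, whereas Klrd1 was found in 0.606% of them and Klrc2 had no UMI, which at 3 counts of 165 cells allows a share of cells with a UMI of up to 1.82%. After thinning, all 47 thymic C6-like cells with Klrk1 UMIs lacked Klrd1 and Klre1 UMIs. Without thinning, Klrk1 was found in 44.8% of the cells and Klrk1 without the other 2 genes in 43.6%. In hepatic C6-like cells Klrk1 without Klrd1 and Klre1 was the pattern of 31.7% (28.5 to 35.1) of cells, against 1.18% of C5-like and 15.7% of C4-like cells.

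The other receptors of hepatic C6-like cells were low. Klrd1 was at 171 CPM, Klrc1 at 76.8, Klrc2 at 38.02 and Klre1 at 88.4, against 233, 131, 41.2 and 189 CPM in C8-like cells; the intervals of Klrc2 overlapped. Since 45.7% of C8-like cells had a Cd3d, Cd3e or Cd3g UMI, of untested source, their levels were not taken as a measure of free RNA. The median depth was 2733 UMIs in C6-like and 3069 in C8-like cells. Each level in C6-like cells was between 13.2% and 15.1% of its level over all hepatic cells for these 4 genes, whereas Klrk1 was at 62.7%. When the cells with the highest doublet scores were removed, Klrd1 fell to 87.6 CPM, Klrc1 to 27.1, Klrc2 to 12.1 and Klre1 to 39.2, while Klrk1 was at 399 CPM. The chains also occurred together: Klrd1 was found in 53.7% (39.6 to 67.4) of the 54 hepatic C6-like cells with Klrc1 and in 13.4% (11.04 to 16.1) of those without, and with the highest doublet scores removed in 22.7% of 22 cells and in 11.8%. The part of doublets and of free RNA in these levels was not tested. Set beside thymic C6-like cells, 4 of the 5 members tested were at least 2-fold higher in the hepatic cells, where 6.5% of genes were higher and 2.18% lower by that measure. These 4 were Klrd1, Klrc1, Klrc2 and Klre1, and Klrk1 was 1.57-fold (1.30 to 1.90) higher.

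Klre1, the shared chain of the KLRE receptors, resembled Klrd1 in its order of classes. C5-like cells had 1114 CPM (1091 to 1136) and C7-like cells 1054 (984 to 1128), and the level was 750 (636 to 878) in interferon-led, 461 (446 to 476) in C4-like, 449 (383 to 525) in cell-cycle-led and 212 (198 to 228) in hepatic C3-like cells. C5-like and C7-like cells did not differ beyond their intervals, nor did C4-like and cell-cycle-led cells. A Klre1 UMI was found in 77.6% of C5-like, 73.9% of C7-like, 38.5% of C4-like and 20.6% of hepatic C3-like cells, and in 16.2% of C8-like cells.

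The partner chains of Klre1 were sparse in every class. Klri1, the inhibitory chain, reached 12.7 CPM (10.4 to 15.4) in C5-like cells. Its level was 7.93 (5.31 to 11.4) in hepatic C3-like and 4.92 (3.48 to 6.75) in C4-like cells, with overlapping intervals. Klri2, the activating chain, reached 29.8 CPM (26.2 to 33.8) in C5-like, 19.1 (16.2 to 22.5) in C4-like and 9.84 (6.89 to 13.6) in hepatic C3-like cells. From few UMIs, it was at 29.2 (10.7 to 63.6) in hepatic interferon-led and 24.1 (13.2 to 40.5) in thymic C3-like cells. In C5-like cells 73.3% had Klre1 UMIs without Klri1 or Klri2, 3.01% had Klre1 with Klri2 and 1.32% had Klre1 with Klri1. Klri1 and Klri2 were found in the same cell in 3 of 8070 hepatic cells. In C7-like cells, whose Klre1 interval overlapped that of C5-like cells, Klri1 had 1 UMI and Klri2 had 4. Klri1 made up 20.4% (14.9 to 26.9) of 186 Klri UMIs in C4-like, 29.9% (25.1 to 34.9) of 355 in C5-like and 44.6% (32.3 to 57.5) of 65 in hepatic C3-like cells, where the interval includes an equal share.

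Set against C4-like cells, C5-like cells had more of Klrd1, Klre1, Klrc2 and both Klri chains but not of Klrc1 or Klrk1. Klre1 was 2.42-fold (2.32 to 2.51), Klri1 2.58-fold (1.77 to 3.85) and Klrd1 2.02-fold (1.96 to 2.08) higher, 3 of the 7 members tested, where 2.57% of 8934 genes were at least 2-fold higher and 2.63% at least 2-fold lower. Klrc2 was 1.63-fold (1.54 to 1.72) and Klri2 1.56-fold (1.27 to 1.92) higher, whereas the ratio was 0.916 (0.884 to 0.949) for Klrc1 and 0.894 (0.863 to 0.926) for Klrk1. The median log2 ratio was 0.70 over the members and -0.0068 over all genes tested.

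C7-like cells had less Klrc1 and less of both Klri chains than C5-like cells. The ratio was 0.315 (0.270 to 0.364) for Klrc1, 0.0981 for Klri1 and 0.167 for Klri2, 3 of the 7 members tested that were at least 2-fold lower, where 7.82% of 7949 genes were lower and 3.17% higher. It was 0.692 (0.607 to 0.786) for Klrc2, 0.826 (0.778 to 0.875) for Klrd1, 0.947 (0.881 to 1.02) for Klre1 and 1.30 (1.21 to 1.40) for Klrk1. Between hepatic and thymic C3-like cells, Klre1 was 2.74-fold (2.03 to 3.78) higher in the liver, where 5.3% of 5854 genes were at least 2-fold higher, and Klri2 had a ratio of 0.408 (0.215 to 0.818), where 3.81% were at least 2-fold lower, from 36 hepatic and 14 thymic UMIs. Klrc1 was 1.79-fold (1.48 to 2.19) higher in hepatic C3-like cells, and the interval of Klrc2, 0.972 to 1.74, included no difference.

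The adaptors of these receptors split in the same comparison of C5-like with C4-like cells. Tyrobp (DAP12), used by the activating CD94 receptors, was at 2521 CPM in C5-like and 370 CPM in C4-like cells, a ratio of 6.81 (6.55 to 7.08), and at 597 CPM in C7-like cells. Hcst (DAP10), used by NKG2D, was at 1287 and 1251 CPM, a ratio of 1.03 (1.00 to 1.06). Tyrobp was also at 3376 CPM in C8-like cells. Of the 23 signalling and ligand genes tested, 6 were at least 2-fold higher in C5-like cells and 1 was lower, against 2.57% and 2.63% of all genes tested. Those higher were Tyrobp, the adaptor Fcer1g (4.80-fold), the phosphatase gene Ptpn6 that inhibitory receptors recruit (2.16-fold), the SAP family adaptor Sh2d1b1, the kinase Syk and the phospholipase Plcg2. Sh2d1a, which encodes SAP, was lower, with a ratio of 0.223 (0.190 to 0.261), and H2-T23, the Qa-1 ligand gene, was at 203 and 174 CPM. In the comparison of libraries, 7 of 24 tested were at least 2-fold higher in the liver and 3 lower, against 12.1% and 16.9% of all genes tested.

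In C4-like cells, a UMI of Tyrobp was found in 36.3% (33.0 to 39.7) of the cells with Klrc2 and in 27.4% (25.3 to 29.5) of those without, and in C5-like cells in 90.2% and 89.7%. Among C4-like cells with Klrc2, most therefore had no Tyrobp UMI at this depth. Hcst was found in 82.0% of C4-like and 83.3% of C5-like cells with Klrk1, close to the 79.4% and 83.5% of those without.

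Over the 14 combinations of class and library, the genes whose log2 levels followed each member most closely were, for Klrd1, Ccl5 (Pearson r = 0.978), Ifng (0.965) and Xcl1 (0.965). They were Ifng (0.966), Xcl1 (0.962) and Klrb1c (0.961) for Klrc1, Fasl (0.995), Slamf7 (0.979) and Samd3 (0.977) for Klrc2, and Slamf7 (0.978), Gzmb (0.974) and Fasl (0.962) for Klre1. For Klrk1 they were Hsd11b1 (0.968), Serpina3g (0.953) and Bhlhe40 (0.941), none of which was on the list of another member. Among the members, Klrd1, Klrc1, Klrc2 and Klre1 correlated with each other at 0.929 to 0.970 and with Klrk1 at 0.821 to 0.851. The classes share their libraries and the points are few, so these values describe the pattern only. Klrc3, Klri1 and Klri2 did not reach 50 CPM in any class and were not compared.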

How the data were processed

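The deposited files hold unnormalized UMI counts for genes by barcodes, which the authors made from droplet-based 3′ v2 libraries with Cell Ranger on mm10, per the labels' processing notes; the Cell Ranger version is not given in the sources used here, and the notes also name Seurat 3.0. After the stated entries the thymic matrix had 2 further lines, which were not read. Scrublet (scanpy 1.11.5, expected share 5%) called 4 hepatic and 1 thymic cell, too few for a working call, and no doublet was removed; 1 alternative removed the highest scores, 0.8% per 1000 barcodes. Cells of both libraries entered 1 clustering with Seurat 5.3.0 (R 4.3.3; 2000 variable genes, of which the receptor and signalling genes were removed to leave 1987, 30 components, Louvain resolution 0.6). A cluster was named for the class with the top marker score (mean log2 ratio, 10 CPM added), at least 0.5 and 0.2 above the next, with at least 3 markers detected and at least 1 among its 10 leading genes; these limits were chosen after clusters had been seen. Among the leading genes of C2-like cells, 3 are hemoglobin genes.

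CPM carry exact Poisson, shares exact binomial (Clopper-Pearson) and ratios exact conditional binomial 95% intervals. Ratios needed 50 or more UMIs in the groups compared, with a floor of 3 counts for groups at 0. Thinning to 1500 UMIs (seed 11) left 8070 hepatic and 4344 thymic cells. Classes under 20 cells in a library were left out. Code was tested on simulated data. Named genes are the 8 members, the signalling list by counts with those past 2-fold, and the 3 genes most alike to each member. The members and lists were chosen with earlier results of these data known. Alternatives were other clusterings, cell filters, totals, thinning depths and detection limits. Python 3.11.15, numpy 2.4.6, scipy 1.17.1, pandas 2.3.3 and matplotlib 3.10.9 were used.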

Additional observations from a re-analysis of the deposited data

Results flagged for a closer look

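The ratio of Klrk1 between C6-like and C3-like cells pointed in opposite directions in the libraries: it was 1.48 (1.35 to 1.62) in the liver and 0.771 (0.611 to 0.969) in the thymus, and the difference between the libraries was not tested. In the 583 hepatic barcodes outside the cell filter, Klrd1 was at 825 CPM (766 to 887), above the floor of 3.44 CPM that 3 counts give there; Klrc3 and Klri1 had no UMI in them.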

How the results depend on the processing

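Of 1111 recomputed values, 949 stayed within the interval of the reported value, 162 moved beyond it and 96 changed by more than 1.5-fold. The only ratios recomputed were the liver to thymus ratios of 7 members over all kept cells, and none changed direction. Ratios between classes, and within a class between libraries, were not recomputed, so their directions were not checked in this way. With the total taken without mitochondrial and ribosomal-protein genes, Klrd1 was at 2382 CPM in C5-like, Klrc1 at 1089 CPM in C4-like and Klrk1 at 568 CPM in hepatic C6-like cells, and the liver to thymus ratio of Klrd1 was 38.01. With cells thinned to 1500 UMIs, Klrd1 was at 1892 CPM in C5-like cells, and the liver to thymus ratios were 36.3 for Klrd1 and 24.0 for Klrk1. Klrc1 in C4-like cells was at 816 CPM when the clustering used the receptor and signalling genes too, where its UMI share in C5-like cells was 59.8%, and at 813 CPM as a mean of the cells' own CPM. The share of cells with both Klrc1 and an activating chain depends on depth by construction: C4-like and C5-like cells had 37.7% and 41.4% with all UMIs, 32.1% and 39.1% at 2500 UMIs, and 14.3% and 15.5% with at least 2 UMIs of a chain. The Klrc1 share of UMIs was between 73.04% and 74.1% for C4-like, 59.8% and 61.5% for C5-like, and 39.8% and 42.9% for C7-like cells over the reported value and 4 alternatives. All 7 members tested stayed at least 2-fold higher in the liver under the 5 alternatives run. No paired analysis was possible because each tissue has 1 library and no test was run. The depth limits what a missing UMI can show, and the depletion, the sort, the pooling and the library cannot be told apart from the tissue.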

Other observations

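At resolution 0.8 a small cluster led by hemoglobin genes appeared beside the C2-like cells, with 116 thymic and 62 hepatic cells. In its thymic cells the inhibitory chain Klrc1 was at 186 CPM (139 to 243) and Klrd1 at 73.6 (45.5 to 112). In its hepatic cells Klrc1 was at 488 CPM (383 to 613) and Klrd1 at 330 (245 to 435), with overlapping intervals. Klrk1 was at 10.5 CPM in its thymic and 79.2 CPM in its hepatic cells, and Eomes, a transcription factor gene of natural killer and memory-like T cells, at 238 and 106 CPM. Hba-a1 was at 855 CPM in the thymic cells and had no UMI in the hepatic ones. The 909 C2-like thymic cells left at that resolution had Klrd1 at 22.9 CPM, Klrc1 at 2.32 and Klre1 at 0.332, from 69, 7 and 1 UMIs. At resolution 0.6 the thymic C2-like class held 56 Klrc1 UMIs (16.9 CPM), and at resolution 0.8 the small cluster held 53 in its thymic cells. The cluster appeared at resolution 0.8 and was examined after it was seen, and which cells it holds was not tested.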
